A study of Mus musculus with 3 samples.

Results

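The unmarked tissue of the Day 14 slide is the set of Visium spots that held RNA but that the deposited position list does not mark as tissue. A Visium slide is a grid of spots, each with its own barcode, that capture polyadenylated RNA from a section laid on top, and each captured molecule is counted once by its unique molecular identifier (UMI). A spot was taken as unmarked tissue when it carried no tissue mark, held 1000 or more UMIs and had no marked spot among its 6 hexagonal neighbours. These conditions gave 1183 of the 4992 spots of the slide, and of 14976 spots in the whole series. A further 99 unmarked spots of that depth were left out because they touched a marked spot. The spots were thus chosen by their UMI totals and their marks, and neither is a result.

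The section came from a full-thickness skin wound of a C57BL/6J mouse, harvested on Day 14 after injury and frozen before sectioning. The study used adult males without any genetic change for this experiment and made excisional punch wounds on the back. One section was measured on each of Day 3, Day 7 and Day 14, so there was 1 section per day and no replicate. No test between animals or sections could be made, and spots of 1 section were never treated as replicates. Values are pooled counts per 1000000 UMIs of the same spots (CPM), with 95% intervals that cover counting error only. The study describes the spots it analysed as a region of interest selected on the photograph of the section. How they were selected is not given in the sources used here.

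Beneath the dermis of mouse back skin lies a thin sheet of striated muscle, the panniculus carnosus, with fat and loose fascia around it, and deeper still the muscles and bones of the trunk. Striated fibres are classed by their myosin heavy chain, with the fastest type carrying *Myh4*, other fast types *Myh1* and *Myh2*, and slow oxidative fibres *Myh7*. Bone is built by osteoblasts, which secrete type I collagen and the mineral-binding proteins osteocalcin and bone sialoprotein, and is resorbed by osteoclasts, which secrete acid phosphatase and proteases.

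Of the 9326995 UMIs on the slide, 3362487 lay in the unmarked tissue, which is 36.1%. Its median spot had 2340 UMIs and 996 genes, and its deepest spot 32354 UMIs. The 679 marked spots of 1000 or more UMIs, out of 697 marked spots, held 4601834 UMIs with a median of 4948 UMIs and 2416 genes. The 66 unmarked spots up to 100 UMIs above the floor gave 34819 CPM for the striated muscle core list and 8828 CPM for the epidermis list. The 72 spots up to 100 UMIs below it gave 41131 and 7598 CPM. All 4992 barcodes are shared by the 3 slides, since every slide carries the same printed grid.

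The spots fell into 29 connected pieces, of which 7 had 5 or more spots and 18 were single spots. Piece 1, with 655 spots, lay on the side of the marked tissue where its outermost spots were rich in muscle RNA. Piece 4, with 38 spots, lay beside it at 22 or more spot pitches from any mark. Both are called the muscle-edge pieces, and they held 72.3% of the UMIs of the unmarked tissue. Pieces 2 and 3, with 310 and 107 spots, lay on the opposite side, where the outermost marked spots were rich in epidermal RNA, and are called the skin-edge pieces. They held 23.2% of the UMIs. Piece 5 had 33 spots, and the smaller pieces 40.

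**Figure D1:**
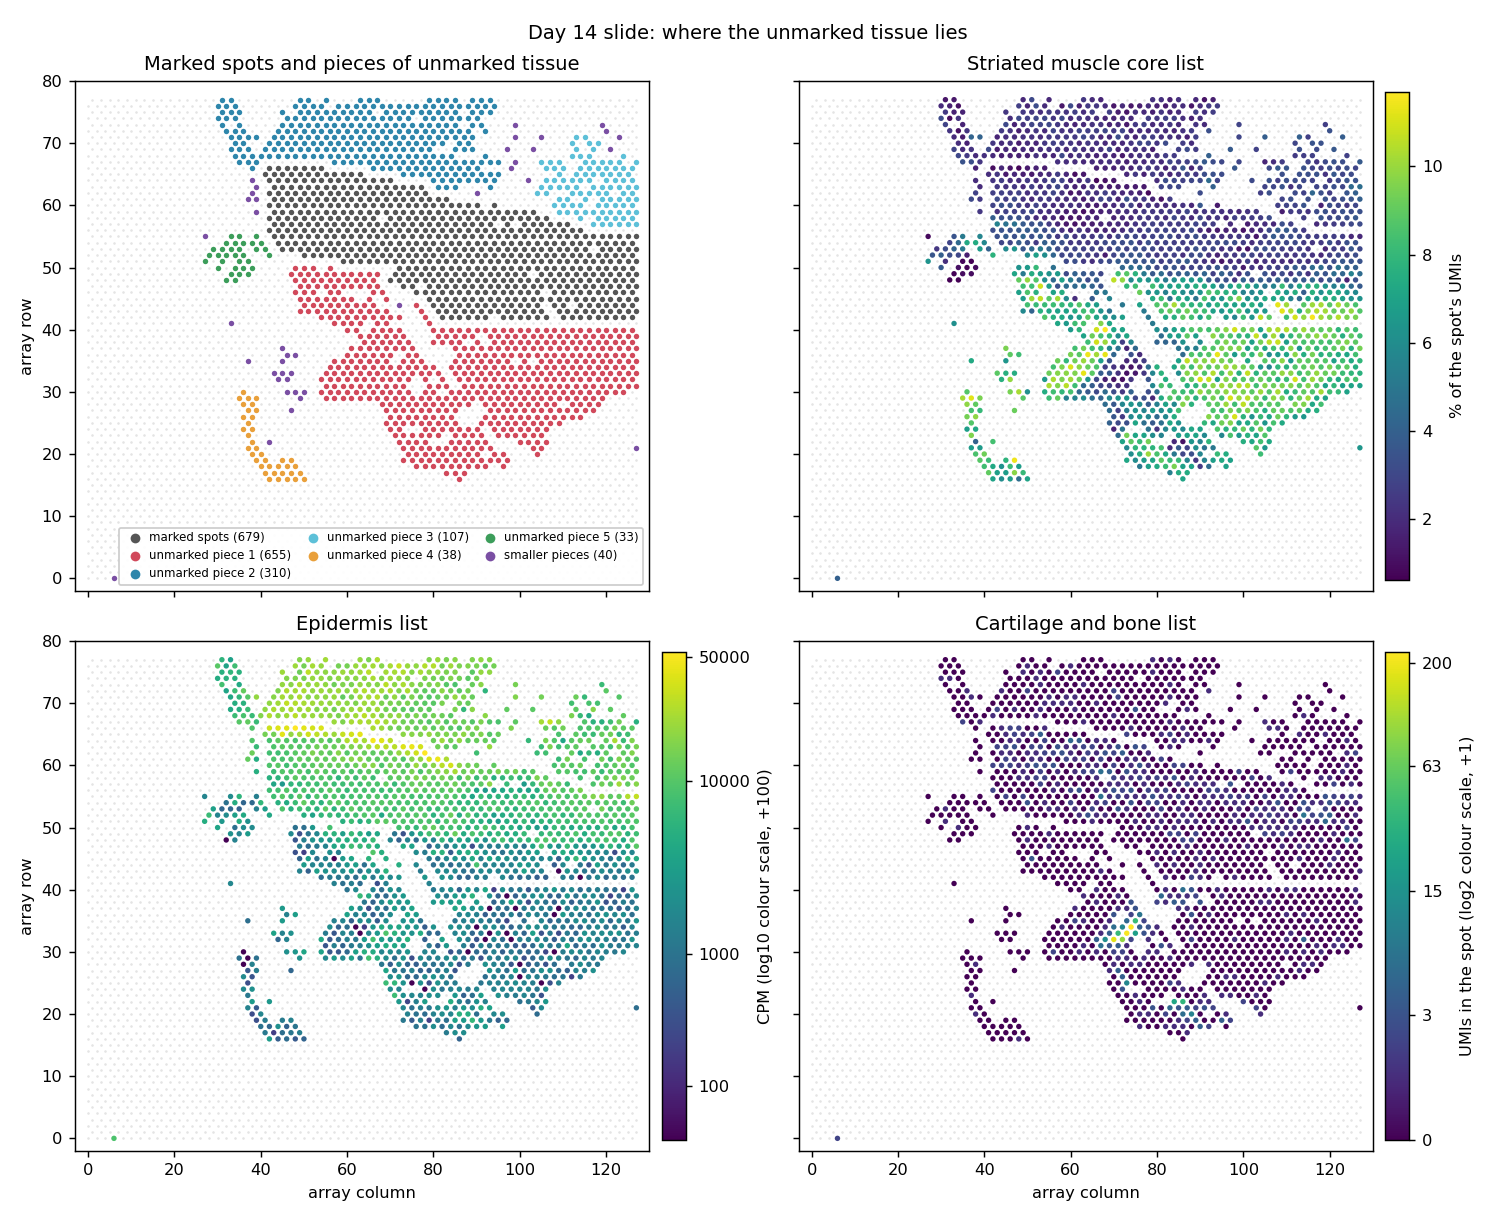
Array row against array column of the Day 14 slide, one point per spot of 1000 or more UMIs, coloured by piece, by the percent of UMIs in the striated muscle core list, by CPM of the epidermis list on a log scale, and by UMIs of the cartilage and bone list on a log scale. The muscle list is high in pieces 1 and 4, the epidermis list in pieces 2 and 3, and the bone list in 4 spots of piece 1.

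The first question was which tissues the unmarked RNA came from as a whole, set against the marked spots. Genes of fast muscle, fat, blood and bone stood higher in the unmarked tissue, and genes of epidermis and hair follicle stood lower. With 50 or more UMIs over both sets required, 11151 genes were counted. A gene was called when the bound of its interval nearer to no change passed 2-fold. By that rule 144 genes were higher in the unmarked tissue, 1.29% of those counted, and 369 were lower, 3.31%. The median gene had a log2 ratio of −0.60, and 75.5% of genes were within 2-fold. Scaling that sets the median gene near 0, by TMM or by DESeq2 size factors, moved every log2 ratio up by 0.59 or 0.60. It gave 533 higher and 9 lower genes, or 544 and 8. The share of calls that were higher then rose from 28.1% to 98.3% or 98.6%, so each ratio is best read against the median gene. Fewer cells of a type in a spot and less RNA per cell cannot be told apart in these counts.

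The gene with the highest ratio was *Bglap*, which encodes osteocalcin, with 352 UMIs in the unmarked tissue and 56 in the marked spots. Its level was 105 against 12.2 CPM, a log2 ratio of 3.10 with an interval from 2.69 to 3.54. *Bglap2*, a neighbouring copy that also encodes an osteocalcin, had 131 and 31 UMIs, a log2 ratio of 2.53 (1.96 to 3.15). *Bglap* lies on chromosome 3 at 88383501-88384464 and *Bglap2* at 88377736-88378699, both on the minus strand of mm10, and reads of such close copies may be split between them. *Ibsp*, encoding bone sialoprotein, lies on the plus strand of chromosome 5 at 104299171-104311469 and had 655 and 218 UMIs, a log2 ratio of 2.04 (1.82 to 2.27).

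Other genes among the 12 highest were of several kinds. *Amd1*, encoding the polyamine enzyme S-adenosylmethionine decarboxylase, had 562 against 137 UMIs, a log2 ratio of 2.49 (2.22 to 2.77). *Igfn1*, which encodes an immunoglobulin-domain protein of skeletal muscle, had 290 against 73 UMIs and a log2 ratio of 2.44 (2.07 to 2.83). *Ppp1r3a*, the muscle glycogen-targeting subunit of protein phosphatase 1, had 225 against 60 UMIs and 2.36 (1.94 to 2.80). *Car3*, a carbonic anhydrase abundant in muscle and fat, had 8520 against 3110 UMIs and 1.91 (1.85 to 1.97). The mitochondria-encoded transcripts with the highest ratios were *mt-Atp8* at 2.64 and *mt-Nd4l* at 2.08 on the log2 scale. *S100a9*, a calcium-binding protein of neutrophils, reached 2.57 with 317 against 73 UMIs. *Hba-a1*, an alpha globin of red cells, reached 1.97 with 5894 against 2059 UMIs. The predicted gene *Gm29773* had 47 against 8 UMIs, and *Lars2*, the mitochondrial leucyl-tRNA synthetase, 6427 against 2115, a log2 ratio of 2.06.

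Genes of skin were among the lowest. *Defb8*, a beta-defensin, stood at −1.94 on the log2 scale with 73 against 384 UMIs. *Hopx*, a homeobox cofactor of keratinocytes and other cells, stood at −1.89 with 142 against 721. *Prss22*, a serine protease, had 4 against 48 UMIs and a log2 ratio of −3.13 (−5.07 to −1.68). Also among the 12 lowest were *Trim2*, *Mir99ahg*, *Gxylt2*, *Stfa3*, *Fbn2* and *Trerf1*, with log2 ratios between −2.42 and −2.11, and *Ephb3* with 58 against 318 UMIs.

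Over 37 marker lists with 369 gene entries, 11 stood past 2-fold higher in the unmarked tissue and 4 past 2-fold lower. The highest were cartilage and bone with a log2 ratio of 1.92 (1.77 to 2.08), erythrocyte with 1.72, haematopoietic marrow with 1.49 and white fat with 1.38. The marrow value came from 282 against 137 UMIs, with 3 of its 10 genes measured, and 5 spots held 31.9% of the 282. The bone value rested on 4 spots, without which it was 0.78 (0.60 to 0.96), 172 against 100 CPM. More than any other gene *Car3* carried the white fat value, with 8520 of 16439 UMIs, and without it the list stood at 0.97 (0.92 to 1.02), 2355 against 1204 CPM. Fast-twitch fibre followed at 1.27, with 110735 against 45822 CPM, and 9 of its 12 genes were called higher, where 1.29% of all genes were. *Myl1*, a fast myosin light chain, had 12887 against 4352 CPM. The striated muscle core list stood at 1.01, and 5 of its 10 genes were called, led by the giant sarcomere protein gene *Ttn* with a log2 ratio of 1.66 (1.60 to 1.71). *Mb*, encoding the oxygen carrier myoglobin, had 528 against 547 CPM, a log2 ratio of −0.05 (−0.14 to 0.04). Muscle glycolysis stood at 1.08 with 5 of 11 genes called, and calcium handling at 1.09 with 2 of 11. The mitochondria-encoded list stood at 1.12, 121625 against 56051 CPM.

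Several muscle and fat lists rested mainly on 1 gene. The embryonic and regenerating list stood at 1.11, but of its 1968 UMIs 1852 belonged to *Actc1*, the cardiac actin that immature fibres also make. Its other genes were scarce, with 1 UMI of *Myh3*, the embryonic myosin, against 18 in the marked spots, and 20 of *Myh8*, the perinatal myosin, against 77. The satellite cell list stood at 1.07 with 1 gene called, the intermediate filament gene *Des*, which mature fibres also express and which is a member of the core list. The brown fat list stood at 1.10 with only *Cox8b* called higher, a cytochrome oxidase subunit found in muscle as well. *Ucp1*, the defining gene of brown fat, had no UMI in the unmarked tissue, where 3 counts would be 0.892 CPM, and *Elovl3* was called lower.

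Skin lists lay at the other end. All 9 measured hair follicle genes and 7 of 10 epidermis genes were called lower, where 3.31% of all genes were. Under TMM or DESeq2 scaling none of these genes was called. The hair follicle list stood at −1.40, or −0.81 with TMM, and the epidermis list at −1.19, or −0.59, with 5101 against 11603 CPM. *Krt28*, a keratin of the inner root sheath, had 210 against 926 UMIs and a log2 ratio of −1.69, and *Sfn*, encoding the keratinocyte protein stratifin, 746 against 2875 UMIs and −1.49. The T cell list stood at −1.36. The matrix fibroblast list stood at −0.68 and the granulation and scar list at −0.68, close to the median gene, and none of their 20 genes was called in either direction. These pooled values join unlike sides. The matrix fibroblast list stood at −1.15 in the muscle-edge and 0.23 in the skin-edge pieces. The granulation and scar list stood at −0.80 and −0.34. *Col1a1*, the main collagen gene of dermis and bone, had 10853 against 17487 CPM.

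**Figure D2:**
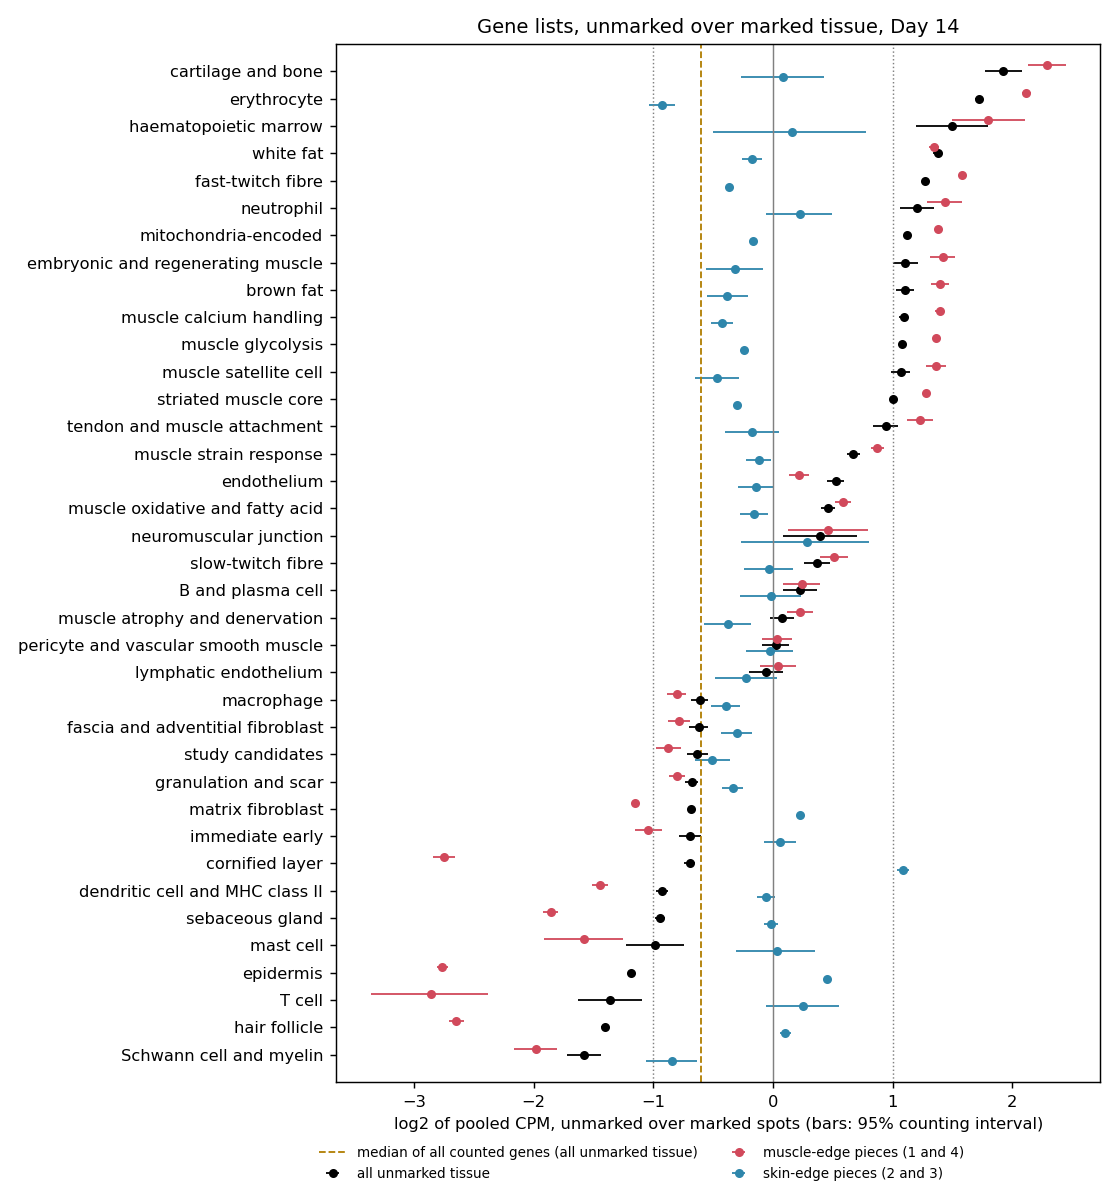
Log2 ratio of pooled CPM, unmarked over marked, for each of the 37 lists, for all unmarked tissue in black, the muscle-edge pieces in red and the skin-edge pieces in blue, with 95% counting intervals, dotted lines at 2-fold and a dashed line at the median of all counted genes for all unmarked tissue. The muscle-edge values run from −2.85 for T cells to 2.29 for bone, while the skin-edge values lie between −0.93 and 1.09.

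The 2 sides of the marked tissue differed in what they held. The muscle-edge pieces carried the muscle signal. Striated muscle core RNA was 71110 CPM there against 29241 CPM in all marked spots, and fast-twitch RNA 137125 against 45822 CPM. Epidermis RNA was 1706 against 11603 CPM. Among 10817 genes counted, 266 were higher than in the marked spots, 2.46%, and 2150 were lower, 19.9%. The median gene had a log2 ratio of −0.88, and 51.6% of genes were within 2-fold. All 10 epidermis, 10 cornified, 9 hair follicle and 10 sebaceous genes measured were called lower, for example the basal keratin *Krt14* with 336 against 2154 CPM. *Ttn* had 3778 against 978 CPM and *Myh4* 24143 against 6918 CPM. The marked spots at that edge, 87 in all, were themselves rich in muscle, with 62577 CPM for the core list.

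The skin-edge pieces had a profile close to that of the marked tissue. Of 10461 genes counted against the same marked spots, 5 were higher, 0.0478%, and 6 were lower, 0.0574%. The median gene had a log2 ratio of −0.07, and 96.7% of genes were within 2-fold. These 417 spots held muscle RNA, but at a lower share than most muscle-edge spots. In every one the core list took less than 5% of UMIs, with a median of 2.38% and a highest value of 4.56%, whereas 582 of the 693 muscle-edge spots reached 5%. Epidermis RNA was 15894 against 11603 CPM in all marked spots, cornified layer RNA 5898 against 2779 CPM, and matrix fibroblast RNA 48387 against 41250 CPM. Against the 87 marked spots of the skin edge the first of these directions turned, since epidermis RNA was 27503 CPM there, a log2 ratio of −0.79 (−0.82 to −0.76), and so did the second, with cornified layer RNA at 8927 CPM and −0.60 (−0.65 to −0.54). Hair follicle RNA was 6211 CPM in the skin-edge pieces, against 3161 CPM in those 87 spots and 5777 CPM in all marked spots. Its log2 ratio to those 87 spots was 0.97 (0.90 to 1.05). Against the same 87 spots core muscle RNA stood at 0.33 (0.30 to 0.36) and fast-twitch RNA at 0.36 (0.34 to 0.39). Matrix fibroblast RNA stood at 0.40 (0.38 to 0.43) and sebaceous gland RNA at 0.26 (0.18 to 0.34). Against all marked spots both muscle lists stood lower, with 23704 against 29241 CPM and 35431 against 45822 CPM.

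The 5 higher genes of the skin-edge pieces, named after their values were seen, included 3 of the outer epidermis. *Lor*, encoding loricrin of the cornified envelope, had 3637 against 1491 CPM, a log2 ratio of 1.29 (1.22 to 1.35). *Lce1a1*, a late cornified envelope gene, stood at 1.17 and *Fam25c* at 1.16. The other two were *Gm42418*, which overlaps ribosomal RNA sequence, with 24505 against 4985 CPM, and *Lars2*, with 1560 against 460 CPM. Among the 6 lower genes, named in the same way, were *Bc1*, a non-coding RNA, with a log2 ratio of −2.04, *Hba-a1* with −1.30, *Trdn* of the muscle calcium-release complex with −1.36, *Mir99ahg* with 4 against 184 UMIs and *Cd83* with 2 against 95. Against the 87 marked spots of the skin edge alone, 97.3% of 5492 genes were within 2-fold, and 5 were higher (0.091%) and 11 lower (0.2%).

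The skin-edge spots varied less among themselves than the marked spots as a whole. The SD over spots of the percent of UMIs in the core list was 0.649 in the skin-edge pieces, 2.33 in all marked spots and 0.689 in the 87 marked spots of the skin edge. For the epidermis list it was 0.574, 0.750 and 1.21. Dispersion here is the spread of a list's share over spots divided by the spread that counting gives, so that 1 means counting error alone. For the core list it was 2.99 in the skin-edge pieces, 31.4 in the muscle-edge pieces and 75.7 in the marked spots. For the epidermis list it was 3.93 in the skin-edge pieces and 52.3 in the marked spots, and for the erythrocyte list 0.989 and 162. The skin-edge spots were shallower, with a median of 1532 against 4948 UMIs, and at lower depth the same true spread gives a lower dispersion. In piece 3 the core list reached a dispersion of 1.24, close to counting error. UMI totals helped to choose the spots and are cut off at the floor, so their medians are given only as the depth behind each band. In the skin-edge pieces they were 2054 UMIs at 2 to 4 pitches from the marked tissue, 1553 at 5 to 9 and 1336.5 at 10 to 19. Over these bands epidermis RNA was 17163, 14906 and 15314 CPM, and core muscle RNA 22497, 25240 and 22792 CPM. Whether these spots lay over tissue was not tested, since the section image was not used here.

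In the muscle-edge pieces the median depth was 2410 UMIs at 2 to 4 pitches, 3316 at 5 to 9, 3249 at 10 to 19 and 3361 at 20 or more. The core list went from 74321 to 67405 CPM, while mitochondria-encoded RNA went from 127017 to 173034 CPM. These bands were nested in different pieces, as piece 4 lay entirely in the farthest band.

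**Figure D3:**
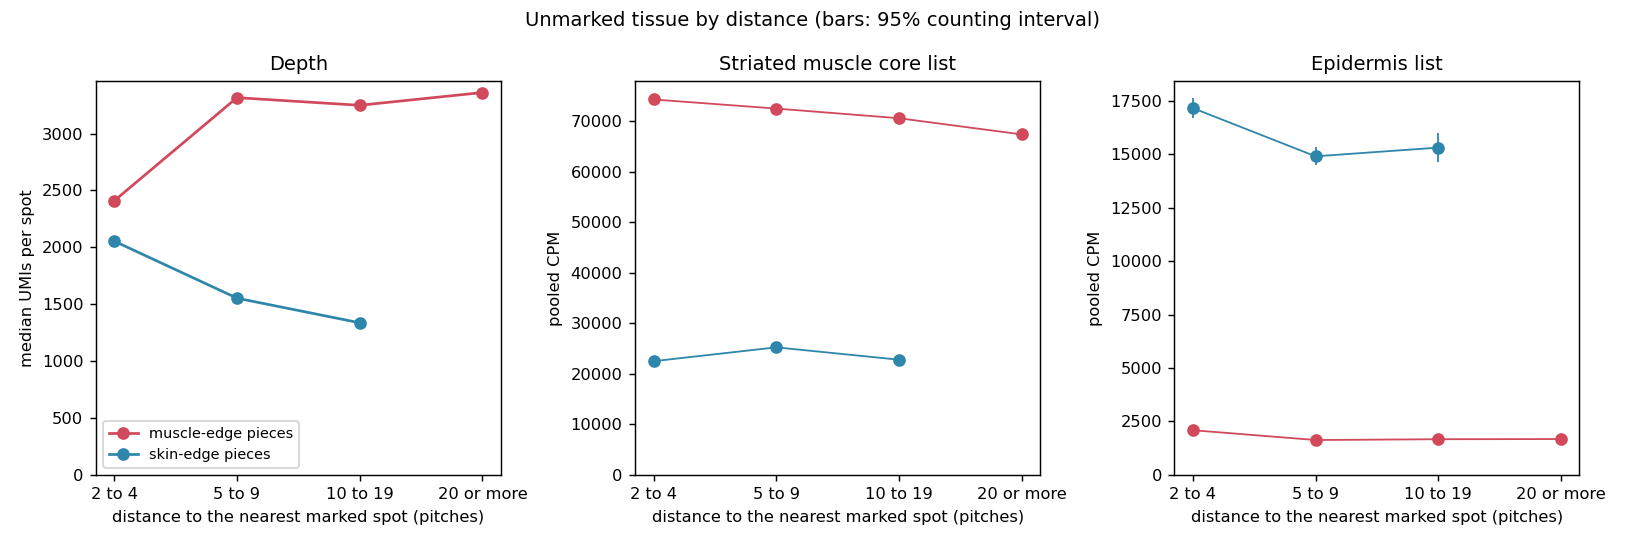
Median UMIs per spot and pooled CPM of the striated muscle core and epidermis lists, in bands of distance to the nearest marked spot in spot pitches, for the muscle-edge pieces in red and the skin-edge pieces in blue, with 95% counting intervals on the CPM. The core list lies between 67405 and 74321 CPM in the muscle-edge pieces and between 22497 and 25240 CPM in the skin-edge pieces, and the median UMIs show the depth behind these values.

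Single places within piece 1 held other tissues. The 4 spots richest in the cartilage and bone list lay together at array rows 32 to 34 and columns 70 to 74, with 32354, 19051, 15150 and 11536 UMIs. The genes named for them beyond *Bglap*, *Bglap2*, *Ibsp*, *Mmp9* and *Col1a1* were chosen after their values were seen. Together they held 713 of the 1278 list UMIs of the unmarked tissue, and no marked spot had more than 7. *Bglap* gave 52, 33, 89 and 29 UMIs in the 4 spots, 203 of the 352 in all unmarked spots, whereas the richest marked spot had 2. *Ibsp* gave 144, 158, 73 and 42 UMIs, 417 of 655. All 4 spots stood far above every marked spot for both genes. Both belong to the list that chose the spots, so this excess followed from the choice and is not read as a result.

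Genes of both bone-forming and bone-resorbing cells were in the same 4 spots. *Dmp1*, a gene of osteocytes, had 23 of its 37 UMIs there, and *Sp7*, the osteoblast transcription factor, 11 of 39. Both also belong to the list that chose the spots, whereas *Acp5*, *Ctsk*, *Mmp9* and *Spp1* do not. *Acp5*, the tartrate-resistant acid phosphatase of osteoclasts, had 342 of 781, *Ctsk*, encoding the osteoclast protease cathepsin K, 155 of 572, and *Mmp9*, a matrix protease, 156 of 364. *Spp1*, encoding osteopontin, had 444 of 1077 UMIs. The 2 cartilage genes read here went different ways. *Col2a1*, the collagen of cartilage, had no UMI there, where 3 counts would be 38.4 CPM. *Acan*, another cartilage gene of the list, had 18 of its 53 UMIs there, and no marked spot had more than 3. Core muscle RNA was 1.12% of the UMIs of these spots.

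The bone genes declined over a few pitches. *Bglap* and *Ibsp* helped to choose the 4 spots, whereas *Acp5* and *Col1a1* did not. *Bglap* was 2600 CPM in the 4 spots, 1140 CPM in the 12 spots 1 pitch away, 89.9 CPM at 2 to 3 pitches and 13.4 CPM beyond 20. *Ibsp* went from 5340 to 1099 and 155 CPM over the first 3 of these distances, and *Acp5* from 4380 to 3130 and 392 CPM. *Col1a1* went from 81034 CPM to 3905 CPM at 7 to 10 pitches and was 17077 CPM beyond 20, where most marked spots lie. Without the 4 spots, 149 genes were higher and 374 lower over the whole comparison.

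**Figure D4:**
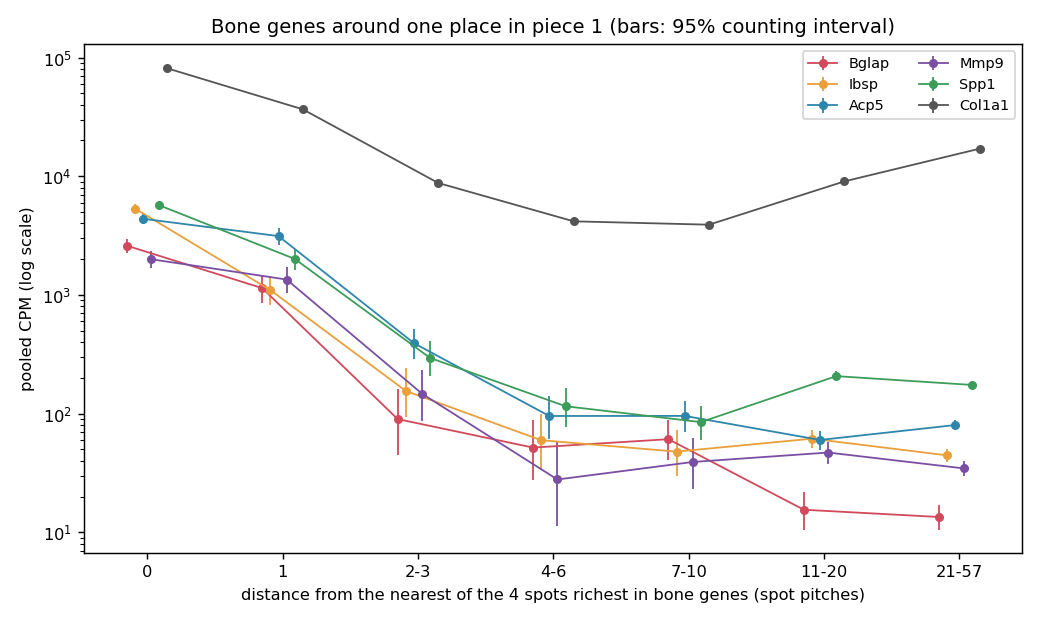
Pooled CPM on a log scale of 6 genes against the distance, in spot pitches, from the nearest of the 4 spots richest in bone genes, over all spots of 1000 or more UMIs on the slide, with 95% counting intervals. *Bglap* goes from 2600 CPM at the 4 spots to 89.9 CPM at 2 to 3 pitches.

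The neutrophil list was led by a pair of other spots in piece 1. The spot at row 25 and column 73 had 10610 UMIs, with 36 of *S100a8* and 31 of *S100a9*, both granulocyte calcium-binding proteins, and the one at row 24 and column 70 had 4565 UMIs, with 27 and 37. No marked spot had more than 3 and 4. *Camp* and *Ngp*, granule genes of developing neutrophils, had 11 and 3 UMIs in the first spot and 8 and 13 in the second. *Elane* and *Mpo*, genes of the earliest granulocyte precursors, had at most 1 UMI in either, and these and the next genes were named after their values were seen. Of the genes of mature neutrophils, the first spot had 2 UMIs of *Retnlg* and none of *Csf3r* or *Cxcr2*, and the second had 2, 2 and 0. *Retnlg* had 13 UMIs in all unmarked spots and 9 in the marked ones, *Csf3r* 7 and 27, and *Cxcr2* 1 and 2. The first of these spots also held 787 UMIs of the erythrocyte list. The highest erythrocyte count was 1488 of 4318 UMIs, at row 40 and column 104, against 713 in the richest marked spot.

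Slow-fibre RNA was concentrated in piece 1 at rows 42 to 46 and columns 49 to 60, in spots that held mostly fast-fibre RNA. The 5 spots richest in the slow-twitch list held 33.3% of its UMIs in 0.782% of all UMIs of the unmarked tissue, with 193, 78, 67, 47 and 45 UMIs, and the richest marked spot had 17. *Myh7*, the slow myosin, had 34, 23, 12, 2 and 11 UMIs in them. *Myh4* had more in each, with 111, 62, 62, 42 and 124 UMIs, and *Myh2* had 14, 5, 27, 0 and 5. All 7 spots of the slide's 2 sets with 5 or more UMIs of *Myh7* were unmarked spots of piece 1. Over the whole unmarked tissue the list stood at 0.37 on the log2 scale, and *Myh7* had 185 against 86 UMIs. Of its 8 measured genes 7 stood above 0, with a median of 0.93. Its most abundant gene, *Atp2a2*, went the other way, with 314 against 702 UMIs.

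Across the unmarked tissue the fastest fibre type made up nearly all myosin. *Myh4* made up 95.4% (95.2 to 95.5) of the UMIs of 6 myosin heavy chains in the unmarked tissue and 87.8% (87.5 to 88.1) in the marked spots. *Myh1* made up 3.43% and 10.0%, *Myh2* 0.873% and 1.67%, and *Myh7* 0.272% and 0.237%. In piece 4 *Myh4* reached 99.6%, and *Myh7* had no UMI, where 3 counts would be 24.5 CPM. The skin-edge pieces were nearer to the marked spots, with 89.8% *Myh4* in piece 2 and 89.2% in piece 3.

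To ask whether unmarked muscle differed from marked muscle, spots were compared in which the core list held 10% or more of the UMIs, 54 unmarked and 16 marked. Only 347 genes had enough UMIs. One was higher, 0.288%, and none was lower. It was *Ndufb2*, a subunit of respiratory complex I, with 76 against 3 UMIs and a log2 ratio of 2.61 (1.01 to 4.92). With a share of 5%, 610 unmarked and 158 marked spots gave 4830 genes, of which 12 were higher (0.248%) and 13 lower (0.269%), and the median gene stood at −0.19. All 25 are shown in the plot of muscle-rich spots, and those outside the top of the whole comparison were named after their values were seen.

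Slow-fibre genes and *Actc1* were among the 12 higher. *Igfn1* had 254 UMIs in the unmarked and 3 in the marked muscle-rich spots, a log2 ratio of 4.33 (2.77 to 6.62). *Mss51*, a gene of fast glycolytic muscle, had 119 against 2, with 3.82 (1.94 to 6.88). *Myh7* had 158 against 6, and the slow troponins *Tnnt1* and *Tnnc1* had 133 against 6 and 116 against 5. Much of this lay in the few spots described above as richest in the slow-twitch list, all of them muscle-rich. Together those spots held 82 of the 158 unmarked UMIs of *Myh7*, 73 of the 133 of *Tnnt1* and 54 of the 116 of *Tnnc1*. The comparison was not repeated without them. *Actc1* had 1629 against 120, a log2 ratio of 1.69 (1.42 to 1.97). The others were *Amd1*, *Dupd1*, *Ifit1*, *Mybph*, *mt-Atp8* and *S100a8*.

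Among the 13 lower genes were both muscle and connective tissue genes. The 2 sets of spots also differed in tissue mix. Matrix fibroblast RNA was 8672 CPM in the unmarked against 16351 CPM in the marked muscle-rich spots. The fascia and adventitial fibroblast list was 452 against 1113 CPM. How far the lower genes followed this mix, rather than the muscle itself, was not tested. *Myh1* had 828 against 2225 CPM, a log2 ratio of −1.43 (−1.54 to −1.31). *Mybpc1*, a myosin-binding protein of slow and some fast fibres, stood at −1.97. *Pi16*, a marker of fascia fibroblasts, had 83.3 against 415 CPM and a log2 ratio of −2.32 (−2.62 to −2.01). *C4b*, a complement gene, stood at −1.69 and *Clec3b*, encoding tetranectin, at −1.39. The rest were *Ankrd2*, *Slc38a3*, *Retnla*, *Tbx1*, *H19*, *Ncbp1* and *Dot1l*. *Myh4* differed less, with a log2 ratio of 0.32. The last of the 13, *Mb*, belongs to the core list that chose these spots, so it is counted but not read as a result.

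**Figure D5:**
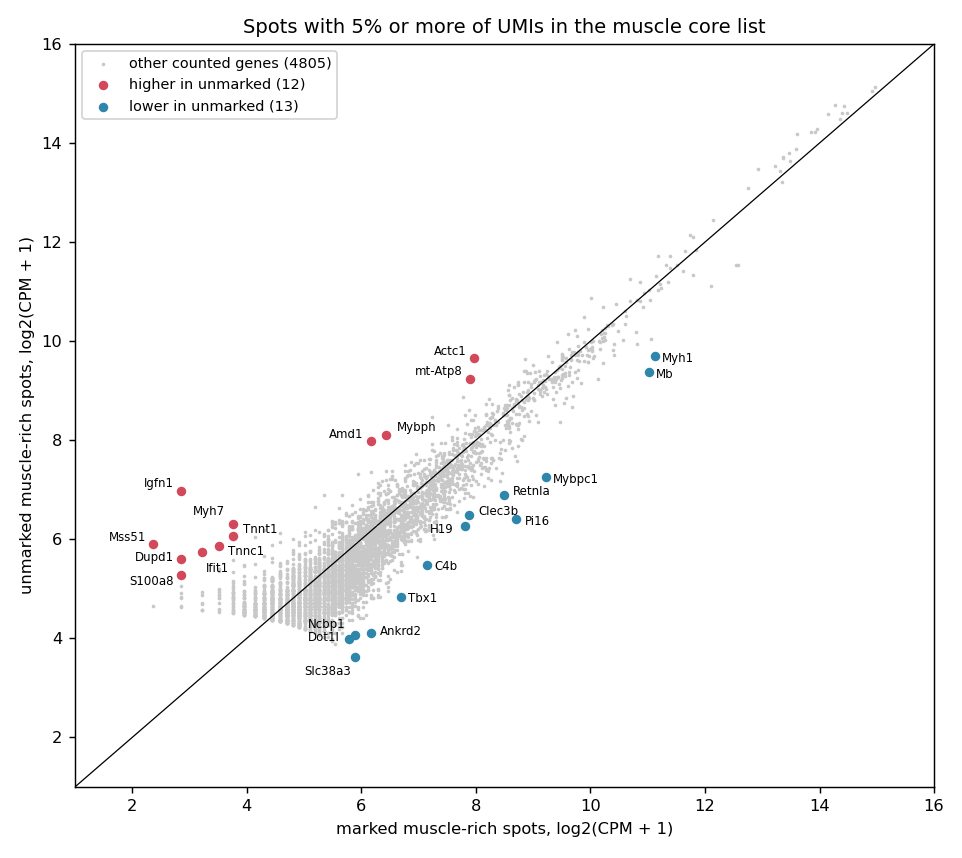
Log2(CPM + 1) of each of 4830 counted genes in the 610 unmarked against the 158 marked muscle-rich spots, with a line of equal levels, and the 12 higher and 13 lower genes in red and blue. *Igfn1* lies farthest above the line, and *Myh1* is the most abundant of the lower genes. *Mb* is one of the genes whose share chose the spots.

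Piece 5 was a small patch rich in fat RNA beside the marked section. White fat RNA was 42528 CPM in its 33 spots against 1880 CPM in the marked spots. Piece 5 held muscle RNA as well, with fast-twitch RNA at 4.04% of its UMIs against 4.58% in the marked spots. The core list had a median share of 3.23% over the spots of piece 5 and reached 5% in 9 of them. Of 10074 genes counted, 183 were higher than in the marked spots, 1.82%, and 83 lower, 0.824%. *Adipoq*, encoding the fat hormone adiponectin, had 148 UMIs, 2060 against 43.9 CPM, a log2 ratio of 5.55 (5.24 to 5.87). *Cfd*, encoding adipsin, had 17164 against 486 CPM, *Pck1* of glycerol synthesis stood at 5.82, and *Lpl*, encoding lipoprotein lipase, at 4.24, with *Cfd* and *Lpl* named after their values were seen. *Ucp1* had no UMI there, where 3 counts would be 41.8 CPM. The endothelium list, at 10441 CPM, holds *Fabp4*, which fat cells also express at high levels. *Pecam1*, the defining endothelial gene, had 12 UMIs, 167 CPM (86.3 to 292) against 43.9 CPM (38.1 to 50.4) in the marked spots. *Scd1*, a lipid enzyme counted in the sebaceous list, gave 880 of that list's 930 UMIs in piece 5.

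The study chose 9 candidate genes linked to inflammation and scarring from its other wound data, and followed them on these sections. Their list stood at −0.63 on the log2 scale, near the median gene, and 1 of its 8 measured genes was called lower, where 3.31% of all genes were. *Itgbl1*, encoding integrin beta-like 1, had 85 UMIs in the unmarked tissue and 265 in the marked spots, 25.3 against 57.6 CPM and a log2 ratio of −1.19 (−1.56 to −0.83). In the skin-edge pieces it had 55.1 CPM, and in the muscle-edge pieces 15.2 CPM. *Pi16* had 110 against 266 CPM and was the candidate called lower. *Ccl7*, a monocyte chemokine, stood at −1.25 (−1.84 to −0.69) and *Lrrc17* at −0.75 (−1.37 to −0.15). *C4b* at −0.54 and *Clec3b* at −0.39 turned to 0.052 and 0.21 under TMM scaling. The intervals of *C3* and *Ccl11* held 0, and *Saa3* had 2 against 19 UMIs. In piece 5 *C4b* reached 1267 CPM from 91 UMIs and *C3*, the central complement component, 710 CPM from 51 UMIs, whereas *Itgbl1* had none, where 3 counts would be 41.8 CPM.

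Of the study's cell markers, *S100a9* is given above. *Dcn*, the fibroblast proteoglycan decorin, had 785 against 568 CPM. *Krt10*, a keratin of the upper epidermis, had 680 against 1380 CPM, and *Cd3g* of the T cell receptor had 26 against 86 UMIs. *Pecam1* had 38.1 against 43.9 CPM with an interval that held no change, and *Lyz2*, the macrophage lysozyme, had 257 against 382 CPM, a log2 ratio of −0.57 that TMM scaling turned to 0.020.

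Clustering the spots by their own variable genes gave 5 regions, described here by their leading genes and without any test. Region 1, with 517 spots, was led by *Amd1*, *0610009L18Rik* and *Actc1*, and 464 of them lay in piece 1. Region 2, with 259 spots, was led by *Lor*, *Fam25c* and *Lce1d* of the cornified layer, and 249 lay in piece 2. Region 3, with 226 spots, was led by *Bglap2*, *Ibsp* and *Bglap*, but 98 of its spots lay in piece 3 and 61 in piece 2, far from the 4 bone-rich spots that it also held and that carried 713 of the 1278 UMIs of the bone list. Region 4, with 142 spots, was led by *Myoc*, *Ccl21a* and *S100a8*, and region 5, with 39 spots, by *Pck1*, *Adipoq* and *Cyp2e1* of fat, with 27 in piece 5. Regions 1 and 4 were led by no marker list.

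Other measures moved with these groups. *Gm42418* was 18086 CPM in the unmarked tissue, 24505 CPM in its skin-edge pieces, 14612 CPM in its muscle-edge pieces and 4985 CPM in the marked spots. Among the pieces *Gm42418* was highest in piece 5, at 57033.5 CPM, and lowest in piece 4, at 6862 CPM. Its part in the results was not tested. The lone spot at row 0 and column 6, 52 pitches from any mark, held 10917 UMIs while its 4 neighbours on the grid held 162 to 283, and without it 144 genes were higher and 375 lower.

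The same rule was applied to the other slides to show where the Day 14 unmarked tissue differed. It gave 310 spots on Day 3 and 1383 on Day 7. All 3 held muscle, with a median core share of 6.44%, 6.36% and 5.51% on Days 3, 7 and 14, and core RNA of 58252, 51008 and 58791 CPM. Hair follicle RNA was 2184 CPM in the Day 14 unmarked tissue, against 0 UMIs on Day 3, where 3 counts would be 3.40 CPM, and 3.72 CPM on Day 7. *Krt71*, a keratin of the inner root sheath, had 1992 UMIs in the Day 14 unmarked tissue and none in that of the other days. The marked spots differed by day in the same way, with hair follicle RNA at 4.16, 5.64 and 5777 CPM on Days 3, 7 and 14. *Krt71* had 0, 1 and 6868 UMIs in them.

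Bone RNA was also far more abundant on Day 14. *Bglap* had 352 UMIs in the Day 14 unmarked tissue, 1 in that of Day 3 and none in that of Day 7, and *Ibsp* had 655, 0 and 6. In the marked spots of Days 14, 3 and 7 *Bglap* had 56, 0 and 0 UMIs, and *Ibsp* 218, 0 and 14. White fat RNA went the other way, with 4889 CPM in the Day 14 unmarked tissue, where Day 3 had 14650 and Day 7 had 19580. *Ucp1* had 1781 UMIs in the unmarked tissue of Day 7, 368 CPM, and none in that of Day 3 or Day 14, while the marked spots of Day 14 had 6. Slow-twitch RNA was highest on Day 3 at 2351 CPM, followed by Day 14 at 385 and Day 7 at 115. Each day was 1 section, so day, animal and the place of the cut cannot be told apart.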

How the data were processed

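Visium libraries were made from frozen wounds of Days 3, 7 and 14, 1 section each. The authors deposited raw UMI counts per gene and spot for all spots of each slide (32285 genes), with position lists. The submitters' processing notes name Space Ranger 1.3.0 and mm10. Sections were stained with haematoxylin and eosin before their RNA was captured. The gene annotation is not given in the sources used here. Per the labels, groups are the days.

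UMIs were summed over spots and scaled to the total of those spots (CPM). CPM carry exact Poisson 95% intervals, and ratios and shares exact conditional binomial and Clopper-Pearson 95% intervals. They cover counting error only, hold no variation between animals or sections, and were used with no test, since there was 1 section per day. A count of 0 is given with the CPM of 3 counts. Depth was 3362487 UMIs in the unmarked and 4601834 in the marked spots. Spots needed 1000 UMIs and genes 50 UMIs over both sets, and a call needed the interval bound nearer to 0 past 2-fold. Pieces were joined by hexagonal adjacency. Regions came from k-means (5 centres, 20 starts, seed 0) on 20 principal components of log-scaled counts of 2000 variable genes found in at least 10 spots. A region was named only when 3 or more of its 10 leading genes were of 1 list. Leading genes needed 100 UMIs.

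Genes were named by a rule: the 12 highest and 12 lowest of the whole comparison, 8 of each between muscle-rich spots, the most abundant, highest and lowest gene of each list, 3 leading genes per region, the 6 myosins, and the study's candidates and cell markers. Genes named otherwise are said to be. Some genes that the rule picks are not reported here. Pieces were grouped by edge, and single places picked, after the data were seen. The members and the lists were chosen with earlier results of these data known. *Gyk* and *Krt85* of the lists were not found by symbol, and *Aldoa* and *Ccl21a* were summed over 2 identifiers. *Des*, *Fabp4*, *Elovl3*, *Clec3b* and *Pi16* are among the genes held by more than 1 list. Positions are from GENCODE M21 of the same build, which held 32158 of the identifiers.

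Alternatives were other UMI floors, rings, gene minimums and scalings (edgeR 4.0.16, DESeq2 1.42.0), the mean of spot CPM, background subtraction, other denominators, subsets of pieces and other clusterings. The ratio script and the clustering were tested on simulated counts. Calculations used Python 3.11.15, numpy 2.4.6, scipy 1.17.1, pandas 2.3.3, scikit-learn 1.9.0, matplotlib 3.10.9 and R 4.3.3. The study's images and deconvolution were not used, and no doublet caller was run, as spots can hold several cells.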

Additional observations from a re-analysis of the deposited data

Results flagged for a closer look

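For 6 marker lists the unmarked tissue stood higher than the marked tissue on 1 slide and lower on another, with counting intervals that left out 0 both ways. The difference between slides was not tested, as each had 1 section. Log2 ratios are given in the order Day 3, Day 7, Day 14. The slow-twitch list gave 0.99, −1.07 and 0.37. Its Day 7 counts were 556 against 1069 UMIs, of which the slow myosin *Myh7* gave 1 and 2. The Day 7 value is thus not read as one of slow fibres. The neuromuscular junction list gave 1.23, −0.26 and 0.40, and the tendon and muscle attachment list 1.84, −0.80 and 0.94. The sebaceous gland list gave −1.53, 0.90 and −0.94, and the mast cell list −0.46, 0.30 and −0.98. The cartilage and bone list gave 0.02 on Day 3, with an interval that held 0, −0.65 on Day 7 and 1.92 on Day 14. Its counts were low on the first 2 of these days, with 8 against 15 UMIs on Day 3 and 41 against 59 on Day 7.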

How the results depend on the processing

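No replicate was left out, as each day had 1 section. No paired analysis was possible because no group holds 2 sections. A core list share of 20% was not run, since the highest share was 11.7% in the unmarked and 11.6% in the marked spots. Depth limits the muscle comparison, which had 34777 UMIs in the marked spots of 10% or more.

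The number of genes higher in the unmarked tissue, 144, became 28 with the mean of spot CPM, 533 with TMM, 544 with DESeq2 size factors, 20 without the largest piece, 264 in the largest piece alone and 262 without the skin-edge pieces, an alternative chosen after seeing the data, as were those without the lone spot, the 4 bone spots, piece 5 and *Car3*. The number lower, 369, became 1031 at a floor of 2000 UMIs, 234 with 0 rings of spots left out, 618 with 3 rings, 54 with the mean of spot CPM, 9 with TMM, 8 with DESeq2, 198 without mitochondria-encoded genes, 7 without the largest piece, 2025 in it alone and 2004 without the skin-edge pieces. The 11 lists past 2-fold higher became 1 with the mean of spot CPM, 17 with DESeq2 and 2 without the largest piece. The 4 lower became 7 at a floor of 2000, 1 with the mean of spot CPM, 0 with TMM, 0 with DESeq2, 0 without the largest piece, 9 in it alone, 9 without the skin-edge pieces and 0 against marked muscle-rich spots. In muscle-rich spots the higher genes went from 1 to 12 at a share of 5%, 0 with the mean of spot CPM and 0 without the largest piece, and the lower from 0 to 13 at 5% and 3 without the largest piece. The rule gave 601 spots on Day 3 at a floor of 500 and 168 at 2000, and at 2000 it gave 777 on Day 7 and 685 on Day 14. The cause of these differences was not tested.

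Without the largest piece the log2 ratio turned to −0.24 for slow-twitch, −0.16 for embryonic, −0.053 for satellite cell, −0.42 for tendon, 0.10 for epidermis, 0.71 for cornified, 0.074 for sebaceous, −0.065 for marrow, −0.20 for cartilage and bone and −0.67 for erythrocyte lists. It also turned for *S100a9* (−0.36), *Bglap2* (−0.24), *Hba-a1* (−0.78), *Myh2* (−0.47), *Myh7* (−0.052), *C4b* (0.42), *Krt10* (0.35), *Cd3g* (0.022), *Comp* (−0.81), *Col1a1* (0.034) and *Ibsp* (−0.43). Against marked muscle-rich spots alone it turned to −0.83 for the core, −0.76 for fast-twitch, −0.77 for calcium handling, −0.62 for glycolysis, −0.51 for strain response, −0.87 for satellite cell, −0.85 for brown fat, −0.31 for erythrocyte, 1.70 for matrix fibroblast, 2.14 for granulation, 1.86 for epidermis, 3.09 for cornified, 1.66 for hair follicle, 2.05 for sebaceous, 0.97 for macrophage, 0.0043 for MHC class II, 1.42 for Schwann cell and 0.89 for immediate early lists. The marked muscle-rich spots were chosen by their share of the core list, whereas the unmarked spots were not. The core value against them was thus set by that choice and is not read as a result. The satellite cell list shares *Des* with the core list. How far the other muscle lists and the skin lists followed the same choice was not tested. *Myh1* turned to 0.40 with TMM, 0.41 with DESeq2 and 0.0088 in the largest piece alone, and *Myh2* to −0.33 with the mean of spot CPM. With TMM and DESeq2, *Clec3b* turned to 0.21 and 0.21, *C4b* to 0.052 and 0.062, *Lyz2* to 0.020 and 0.030, and *Tnmd* to 0.053 and 0.062. Regions gave an adjusted Rand index of 0.885 with 4 centres, 0.821 with 6 and 0.818 with Ward clustering.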
